A study of Rattus norvegicus with 12 samples.

Results

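The genes described here are those of the glucocorticoid response: the 2 receptors, the enzyme that makes their ligand inside cells, and 7 well known targets. They were chosen by gene symbol, as the rows of the count table named Nr3c1, Nr3c2, Hsd11b1, Fkbp5, Sgk1, Tsc22d3, Zbtb16, Pdk4, Klf9 or Errfi1, and 9 of these 10 symbols were found among 17268 genes. The expression of Tsc22d3 was not analysed here. The values come from RNA sequencing of cerebral cortex from adult male Sprague Dawley rats, with 12 libraries of 1 rat each and 3 rats per group. In Sham rats the operation was done but no clot was injected. Model rats received a clot, made of rinsed donor rat blood, at the middle cerebral artery and no treatment. The rt-PA rats received the same clot and then intravenous recombinant tissue plasminogen activator, a drug that dissolves clots, 6 h after the clot. The rt-PA+Acu rats received clot and drug in the same way, and in addition acupuncture by the XNKQ protocol at the points GV26 and PC6, 2 h after the clot. No group had acupuncture without the drug, so acupuncture can be compared only on top of rt-PA. The hemisphere from which the sequenced cortex came is not stated in the sources used here.

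Glucocorticoids, in the rat mainly corticosterone, pass into cells and bind the glucocorticoid receptor Nr3c1, which waits in the cytoplasm in a complex with the chaperone Hsp90 and its partners. The bound receptor moves to the nucleus, where it raises or lowers the transcription of its targets, among them Fkbp5, whose protein joins the same complex and weakens hormone binding. The mineralocorticoid receptor Nr3c2 binds the same hormone with higher affinity in brain cells that lack Hsd11b2, the enzyme that inactivates it, whereas Hsd11b1 regenerates active hormone from its inert form. Many of these genes also answer to other signals, so their RNA levels are not a measure of the hormone, which was not measured here.

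Levels are given as CPM, the counts of a gene for each 1000000 counts in its library, with library sizes corrected by the trimmed mean of M values (TMM). Total counts ranged from 11678450 to 13616935 per library, and every measured member had enough counts to be tested in each comparison. A gene passed the test where its adjusted p was under 0.05 in the quasi-likelihood test of edgeR, with the Benjamini-Hochberg method applied across every gene tested, and it met the study's threshold where its log2 fold change was also beyond 1 in either direction. The tissue was bulk cortex, in which fewer cells of a type and less RNA per cell cannot be told apart. Markers of cortical excitatory neurons, summed over 7 genes, ranged from 4452 to 4824 CPM in Sham, from 1372 to 1617 CPM in Model, from 951 to 1436 CPM in rt-PA and from 2207 to 4134 CPM in rt-PA+Acu. Markers of striatal neurons, which a cortical dissection should largely leave out, summed over 6 genes, were 369, 968 and 781 CPM in the Sham rats and 155 to 289 CPM in the 9 rats with a clot, a difference that goes with every comparison against Sham. Of these 6 genes, 6 passed the test as lower in Model against Sham, and 5 each in rt-PA and rt-PA+Acu against Sham. The markers of oligodendrocytes, the myelin-forming cells, differed several-fold between rats of 1 group, and their values stand beside the genes they move with. The part of these shifts in the results was not tested.

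RefSeq promoter windows of the build GRCr8, each holding 250 bases before and 50 after a transcription start, were at hand for 7 of the 10 genes of the rule, and 6 of the 9 measured genes. The 250 bases before the start are shown for Errfi1, the member with the largest rise after the clot, and for Pdk4 and Fkbp5, textbook targets whose group means were lowest in rt-PA+Acu, so that their core promoters can be set side by side. Errfi1 and Sgk1 also had their lowest group mean in rt-PA+Acu, and Sgk1, with 3 windows, is not shown. Capitals mark the TATA box letters TATAAA and the CCAAT box letters CCAAT, on either strand. The windows lie at chr5:166606591-166606840 on the plus strand (Errfi1), chr4:34568330-34568579 on the minus strand (Pdk4) and chr20:6543556-6543805 on the minus strand (Fkbp5).
Errfi1: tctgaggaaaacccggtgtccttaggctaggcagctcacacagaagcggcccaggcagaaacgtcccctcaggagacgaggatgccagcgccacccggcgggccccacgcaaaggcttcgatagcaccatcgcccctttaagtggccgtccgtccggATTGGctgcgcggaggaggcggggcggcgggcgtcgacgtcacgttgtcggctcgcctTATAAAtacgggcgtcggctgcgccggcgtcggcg
Pdk4: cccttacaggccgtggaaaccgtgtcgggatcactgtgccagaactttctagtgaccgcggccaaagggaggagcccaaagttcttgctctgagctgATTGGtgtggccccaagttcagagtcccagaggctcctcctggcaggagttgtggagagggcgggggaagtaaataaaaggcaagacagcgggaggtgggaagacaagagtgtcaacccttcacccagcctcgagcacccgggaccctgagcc
Fkbp5: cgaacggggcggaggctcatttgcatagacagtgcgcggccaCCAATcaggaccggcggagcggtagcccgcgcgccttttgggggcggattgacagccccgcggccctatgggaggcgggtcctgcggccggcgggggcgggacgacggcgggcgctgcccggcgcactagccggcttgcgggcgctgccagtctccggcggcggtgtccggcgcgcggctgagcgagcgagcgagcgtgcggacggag

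The letters TATAAA were found in 4 of the 12 windows of the rule's genes, belonging to Errfi1, Sgk1 and Tsc22d3, against 14.2% of all 33469 windows. CCAAT was found in 5 of 12 windows against 37.5% of all windows. The palindromic glucocorticoid response element, written as AGAACA, 3 bases of any kind and TGTTCT, was in 0 of the 12 windows and in 0.0149% of all windows, and the hexamer AGAACA alone, which overlaps it, was in 0 of 12 against 20.7%. Both strands were searched. These letters are only a description of the 300 bases searched, and the receptor is known to bind many of its targets far from the start.

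Neither receptor gene passed the test in any of the 5 comparisons. Nr3c1 stood at 162, 172 and 166 CPM in Sham, 182, 165 and 134 CPM in Model, 146, 147 and 149 CPM in rt-PA and 212, 187 and 145 CPM in rt-PA+Acu. The rt-PA rats all lay below the Sham range, by a small margin, and the other groups overlapped it. The log2 fold change of Nr3c1 was -0.04 (SE 0.12, adjusted p = 0.782) for Model against Sham and 0.30 (SE 0.15, adjusted p = 0.148) for rt-PA+Acu against rt-PA, neither of which passed the test. For rt-PA against Sham it was -0.19, with an adjusted p of 0.0552 in edgeR's test and 0.0446 in the Wald test of DESeq2. Without the third rt-PA+Acu library, the difference from rt-PA was 0.44 with an adjusted p of 0.0141. Nr3c2 stood at 46.9, 44.0 and 47.1 CPM in Sham, 57.9, 53.0 and 43.6 CPM in Model, 44.8, 43.6 and 72.5 CPM in rt-PA and 50.6, 55.9 and 51.2 CPM in rt-PA+Acu. All rats given acupuncture lay above the Sham range, with a log2 fold change of 0.19 that did not pass the test (adjusted p = 0.260). The ratio of Nr3c1 to Nr3c2 counts, which is not corrected for transcript length, averaged 3.62 ± 0.242 for Sham, 3.11 ± 0.0339 for Model, 2.90 ± 0.735 for rt-PA rats and 3.45 ± 0.687 for those with acupuncture (SD, n = 3 each). Over the 12 libraries, the genes whose centred log2 CPM profile lay nearest to that of Nr3c1 were Rtl8a, Nipsnap2 and Ndufc2, at Euclidean distances of 0.273, 0.305 and 0.324 among 13298 genes, where the profile of Nr3c1 itself lay 0.622 from a flat line and that of Nr3c2 lay 0.849 away.

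Hsd11b1, which converts inert 11-dehydrocorticosterone back to corticosterone, was lower than in Sham after the clot, with or without rt-PA, and overlapped the Sham range in the rats given acupuncture as well. Its level was 63.8, 62.6 and 73.0 CPM in Sham, 21.1, 27.4 and 35.3 CPM in Model, 33.2, 24.4 and 39.5 CPM in rt-PA, and 88.5, 73.6 and 55.0 CPM in rt-PA+Acu. Every Model and rt-PA library lay below every Sham and rt-PA+Acu library, and within each of these pairs of groups the libraries overlapped. It was 2.36-fold lower in Model than in Sham, with a log2 fold change of -1.24 (SE 0.17, adjusted p = 0.000585), and 2.23-fold higher in rt-PA+Acu than with rt-PA alone, with a log2 fold change of 1.16 (SE 0.23, adjusted p = 0.00850). Against Sham, rt-PA+Acu differed by 0.12 on the log2 scale (SE 0.17, adjusted p = 0.704), and rt-PA by -1.05 (SE 0.17, adjusted p = 0.00128). The sum of the 7 excitatory neuron markers had the same split, with its Model and rt-PA libraries below those of Sham and rt-PA+Acu. H6pd, the enzyme of the endoplasmic reticulum that supplies Hsd11b1 with its cofactor, had a log2 fold change of 0.43 for Model against Sham that did not pass the test (adjusted p = 0.309). It is named from the list of ligand handling genes after its values were seen.

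Errfi1, whose protein inhibits the epidermal growth factor receptor, had the opposite pattern. It stood at 42.4, 46.4 and 68.1 CPM in Sham, 137, 117 and 147 CPM in Model, 139, 105 and 136 CPM in rt-PA, and 42.5, 36.6 and 37.2 CPM in rt-PA+Acu. The 6 Model and rt-PA libraries lay above all 6 others. The level was 2.58-fold higher in Model than in Sham, with a log2 fold change of 1.37 (SE 0.18, adjusted p = 0.000434), and 3.27-fold lower in rt-PA+Acu than with rt-PA alone, with a log2 fold change of -1.71 (SE 0.14, adjusted p = 0.00104). With acupuncture it was -0.43 on the log2 scale from Sham (adjusted p = 0.200), with the highest rt-PA+Acu rat just above the lowest Sham rat. In Model against Sham, rt-PA against Sham and rt-PA+Acu against rt-PA, Hsd11b1 and Errfi1 passed in each of the 14 other settings and left-out libraries that were run. Among these settings was an unadjusted p under 0.05, which both genes meet wherever their adjusted p passes. Of the 9 genes, these 2 alone had a step in their order of group means at which neighbouring groups did not overlap.

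**Figure D1:**
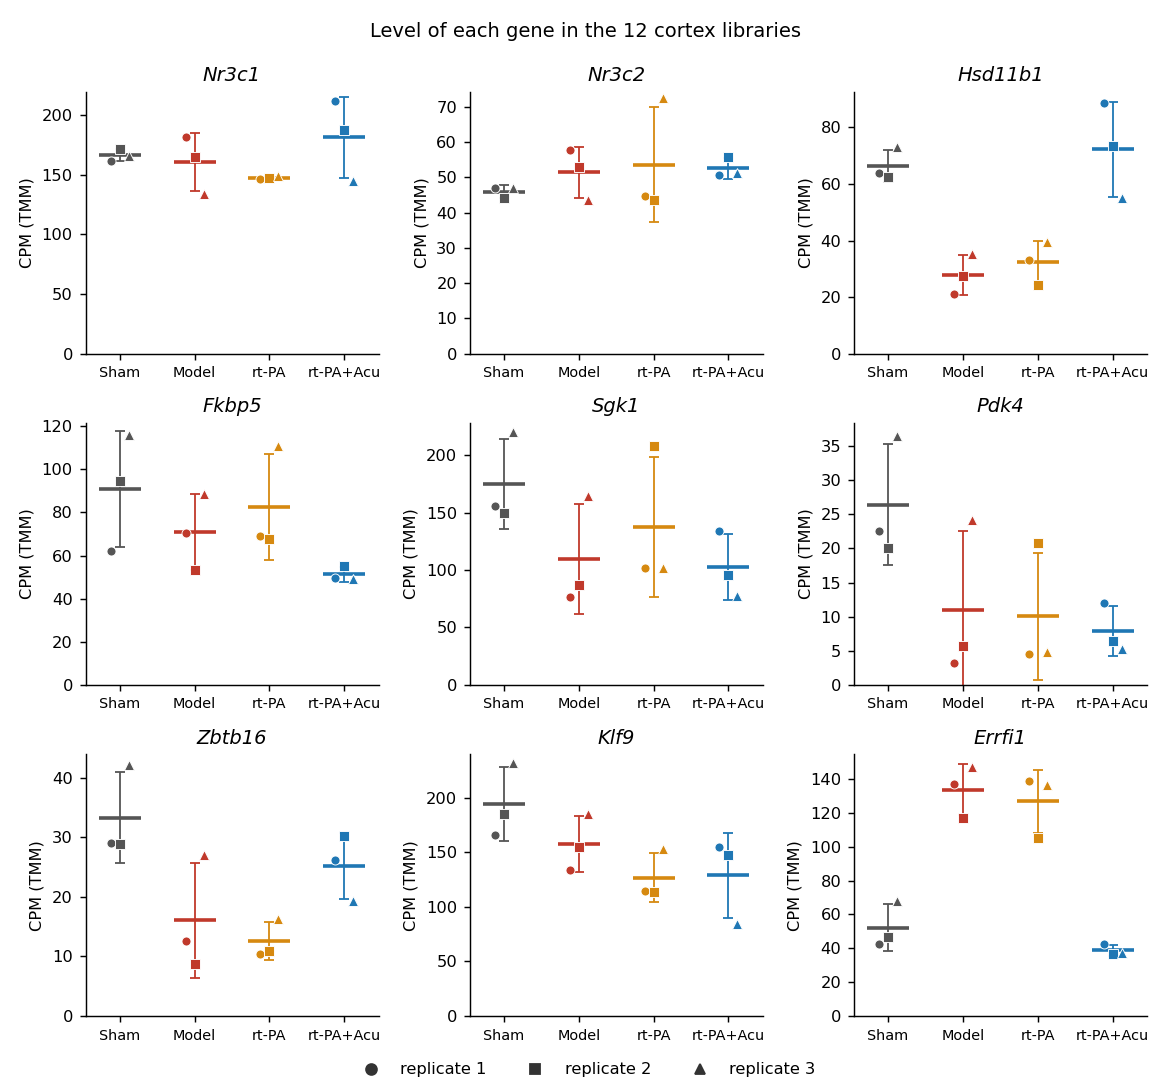
Level of each of the 9 genes in CPM (y axis, linear, from 0) in the 3 libraries of each group (x axis), with the mean as a bar and the SD as error bars, cut off at 0 for Pdk4 in Model. The Model and rt-PA libraries lie below the others for Hsd11b1 and above them for Errfi1, and single libraries stand high in Model and rt-PA for Pdk4.

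Fkbp5, the chaperone partner that acts as feedback on the receptor, had its lowest group mean in rt-PA+Acu. The Sham rats had 62.2, 94.4 and 116 CPM, the Model rats 70.5, 53.4 and 88.7 CPM, the rt-PA rats 69.1, 67.7 and 111 CPM, and the rt-PA+Acu rats 49.6, 55.0 and 49.0 CPM. All 3 rt-PA+Acu rats lay below every Sham and rt-PA rat, and they varied less among themselves (51.2 ± 3.32 CPM) than the Sham rats did (90.8 ± 27.1 CPM, SD, n = 3 each). Fkbp5 fell by 0.69 on the log2 scale in rt-PA+Acu against rt-PA (SE 0.20, adjusted p = 0.0322), and the adjusted p was 0.0540 to 0.0902 without the third rt-PA library or without any 1 of the rt-PA+Acu libraries. Against Sham the difference was -0.83 (SE 0.20), with an adjusted p of 0.0591 in edgeR's test and 0.00391 in the Wald test of DESeq2. For Model against Sham it was -0.35 (SE 0.24, adjusted p = 0.256), which did not pass the test.

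Zbtb16, a zinc finger transcription factor that glucocorticoids induce in many cells, was lower with the clot and with rt-PA than in Sham, and higher with acupuncture than with rt-PA alone. It stood at 29.0, 28.8 and 42.1 CPM in Sham, 12.6, 8.71 and 27.0 CPM in Model, 10.5, 10.98 and 16.4 CPM in rt-PA, and 26.2, 30.2 and 19.2 CPM in rt-PA+Acu. All Model and all rt-PA rats lay below the Sham range, the third Model rat only by a small margin. The log2 fold change was -1.04 for Model against Sham (SE 0.37, adjusted p = 0.0430), -1.42 for rt-PA against Sham (SE 0.23, adjusted p = 0.00125) and 1.00 for rt-PA+Acu against rt-PA (SE 0.24, adjusted p = 0.0170). The first of these was at an adjusted p of 0.0673 to 0.142 in 5 of the 6 fits that left out 1 library, and at 0.000691 without the third Model library, where the fold change was -1.62. With scaling by library size alone it was 0.0609. The last was at 0.0508 to 0.0649 without the first rt-PA, the first rt-PA+Acu or the second rt-PA+Acu library.

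Pdk4, the kinase that turns off pyruvate dehydrogenase and so spares glucose, and Sgk1, a kinase that regulates ion transport, varied widely between rats of 1 group. Pdk4 was at 22.6, 20.1 and 36.5 CPM in Sham, 3.21, 5.67 and 24.2 CPM in Model, 4.51, 20.7 and 4.86 CPM in rt-PA, and 12.04, 6.45 and 5.24 CPM in rt-PA+Acu. The third Model rat and the second rt-PA rat were near Sham, and the other 7 rats with a clot lay below all Sham rats. The log2 fold change of Pdk4 against Sham was -1.25 in Model (SE 0.63, adjusted p = 0.125), -1.40 in rt-PA (adjusted p = 0.0671) and -1.74 in rt-PA+Acu (SE 0.34, adjusted p = 0.0308), of which the last passed the test. The first was -2.56 (adjusted p = 0.000456) without the third Model library, and the second was -2.49 (adjusted p = 0.000324) without the second rt-PA library. The last had an adjusted p of 0.0818 to 0.0981 when any 1 Sham library or the second rt-PA+Acu library was left out, and of 0.180 in 1 fit over all 12 libraries.

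Sgk1 was at 155, 149 and 220 CPM in Sham, 76.8, 87.3 and 165 CPM in Model, 102, 208 and 102 CPM in rt-PA, and 134, 95.8 and 77.5 CPM in rt-PA+Acu. Only the rt-PA+Acu rats all lay below the Sham range, and the third Model and second rt-PA rats were again high in their groups. The log2 fold change of Sgk1 was -0.67 for Model against Sham (SE 0.28, adjusted p = 0.0757) and -0.77 for rt-PA+Acu against Sham (SE 0.22, adjusted p = 0.0856), neither passing the test. Without the third Model library the former was -1.08 (adjusted p = 0.00114), and without the first rt-PA+Acu library the latter had an adjusted p of 0.0289. By the Wald test of DESeq2 their adjusted p-values were 0.0241 and 0.0111. The summed CPM of 7 oligodendrocyte markers, all present in the table, was 12318, 15482 and 18384 in Sham, 1762, 4009 and 8892 in Model, 2799, 12004 and 3572 in rt-PA, and 21738, 9019 and 3368 in rt-PA+Acu. Pdk4 had the same order of rats as these markers in Model, rt-PA and rt-PA+Acu, and Sgk1 did so too, although its 2 lower rt-PA rats were almost equal, while neither did in Sham. Hsd11b1 had the marker order in Model and rt-PA+Acu, Klf9 had it in those groups and in Sham, Nr3c1 in rt-PA+Acu, and Fkbp5 and Errfi1 in Sham. Nr3c2 and Zbtb16 had it in no group. With 3 rats per group a gene can share an order by chance, and the share of all genes doing so was not counted. The first rt-PA+Acu rat had the highest sum of oligodendrocyte markers, and its Pdk4 was at 12.04 CPM, below every Sham rat. Carns1, Hapln2 and Bcas1, among them genes known from oligodendrocytes, had the profiles nearest to that of Pdk4. Their distances were 1.63, 1.71 and 1.99, where Pdk4 itself lay 3.90 from a flat line. These genes were looked up after the values were seen, and the part of oligodendrocytes in the differences was not tested.

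**Figure D2:**
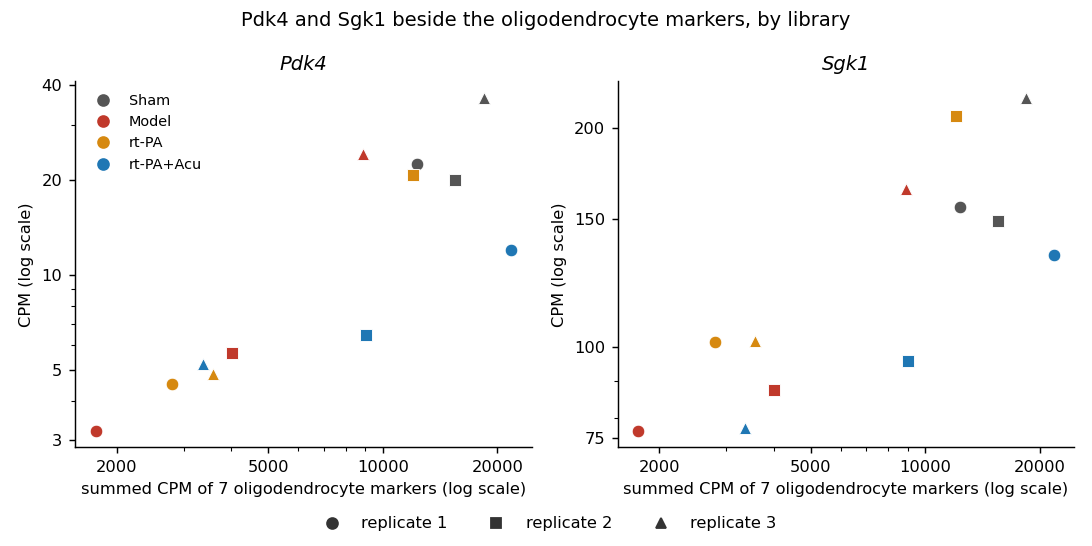
Level of Pdk4 (left) and Sgk1 (right) in CPM on a log axis against the summed CPM of the 7 oligodendrocyte markers on a log axis, with 1 point per library, coloured by group and shaped by replicate number. The third Model and the second rt-PA library are the highest of their group on both axes, and the first rt-PA+Acu library, at 21738 CPM of markers, has a Pdk4 level of 12.04 CPM.

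Klf9, a transcription factor with circadian and hormone-driven expression, was somewhat lower with rt-PA. It stood at 166, 185 and 232 CPM in Sham, 134, 155 and 185 CPM in Model, 114, 113 and 153 CPM in rt-PA, and 155, 148 and 83.9 CPM in rt-PA+Acu. All rt-PA and all rt-PA+Acu rats lay below the Sham range. Klf9 fell by 0.63 on the log2 scale in rt-PA against Sham (SE 0.16, adjusted p = 0.0116), and the values for Model against Sham (-0.29, adjusted p = 0.139) and rt-PA+Acu against Sham (-0.60, adjusted p = 0.168) did not pass the test.

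Counted together for Model against Sham, 3 of the 9 genes met the study's threshold, Errfi1 higher and Hsd11b1 and Zbtb16 lower, where 21.5% of all 12884 genes tested did so. In the direction of Errfi1 9.43% of all genes met it, and in the other direction 12%. These 3 also were the ones to pass the test alone, against 54% of all genes, and to have groups that did not overlap, against 63.7%. The median log2 fold change of the 9 genes was -0.35, and that of all genes was 0.01. Without the third Model library, 7 of 9 passed the test, the added genes being Nr3c2, Sgk1, Pdk4 and Klf9, and 5 met the threshold, where all genes stood at 57.6% and 24%. For rt-PA against Sham, which uses the same Sham rats, 3 of 9 met the threshold against 22.6% of all genes, and Klf9 was the fourth to pass the test alone, which 54.7% of all genes did. Groups did not overlap for 5 of 9, these 4 and Nr3c1, against 63.9% of all genes. Without the second rt-PA library Sgk1 (-0.78, adjusted p = 0.00570) and Pdk4 also passed, 6 of 9 against 55.3% of all genes.

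For rt-PA against Model, which asks what the drug given at 6 h changed after the clot, 0 of the 9 genes passed edgeR's quasi-likelihood test, with adjusted p-values from 0.583 to 0.979. 0% of all 12941 genes tested met the threshold. At an unadjusted p under 0.05 the count was again 0 of 9, where 9.92% of all genes were below it, and DESeq2 called 0 of 9. The groups overlapped for each of the 9, and 16% of all genes did not overlap. The value for Pdk4 depended on single rats: its log2 fold change was -1.23 without the second rt-PA library and 1.18 without the third Model library.

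For rt-PA+Acu against rt-PA, which asks what acupuncture changed on top of the drug, Hsd11b1 and Errfi1 met the threshold, 2 of 9 where 15.3% of all 12999 genes did so. Hsd11b1, Zbtb16, Errfi1 and Fkbp5 passed the test alone, 4 of 9 against 34.8% of all genes, and for the same 4 the groups did not overlap, against 51.2%. Hsd11b1, Zbtb16 and Errfi1 each differed from rt-PA in the direction opposite to their difference between rt-PA and Sham, comparisons that share the rt-PA rats, while Fkbp5 did not pass the test between rt-PA and Sham. For rt-PA+Acu against Sham, only Pdk4 met the threshold, 1 of 9 where 2.06% of all 12775 genes did so, and it was the single gene to pass the test, which 5.1% of all genes passed. The groups did not overlap for 5 of 9, namely Nr3c2 higher and Fkbp5, Sgk1, Pdk4 and Klf9 lower in rt-PA+Acu, against 30.7% of all genes. The median log2 fold change of the 9 in that comparison was -0.43, where all genes had 0.02.

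**Figure D3:**
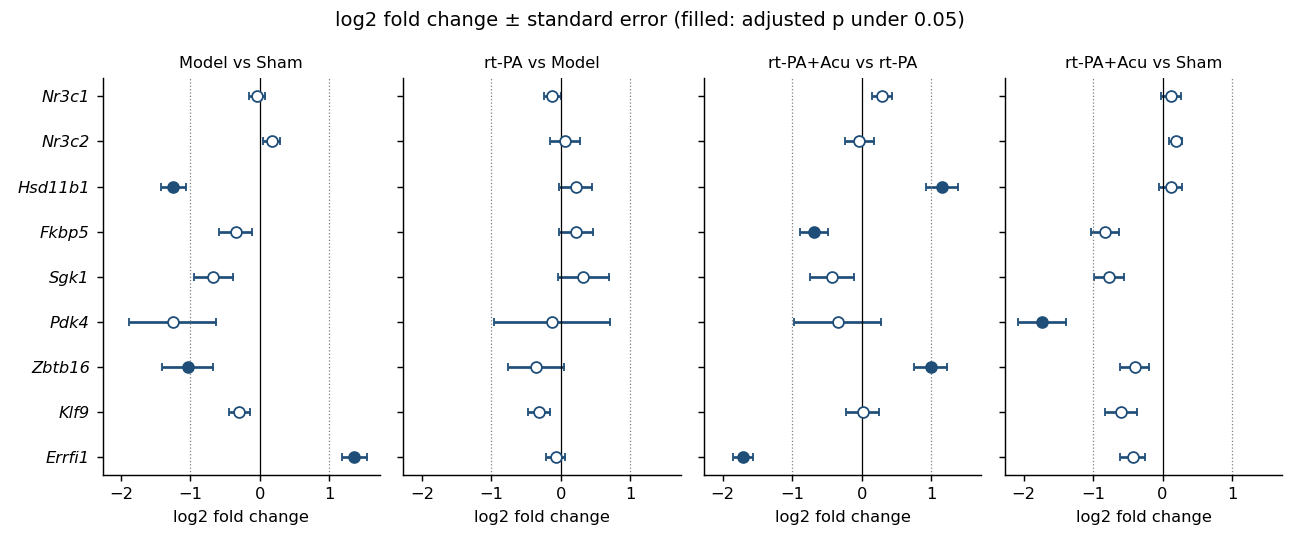
log2 fold change (x axis) with its standard error for each of the 9 genes (y axis) in 4 comparisons, from edgeR's quasi-likelihood fits, with filled points for an adjusted p under 0.05 and dotted lines at -1 and 1. The points for Hsd11b1 and Errfi1 lie on opposite sides of 0 in Model against Sham and in rt-PA+Acu against rt-PA, no point is filled for rt-PA against Model, and only Pdk4 is filled for rt-PA+Acu against Sham.

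Other genes of the pathway were taken from 4 lists of 47 genes in all, of which 44 were in the table and 41 or 42 had enough counts to be tested in each comparison. The 4 lists were chosen with earlier results of these data known, so their shares beside those of all genes only describe them. Hsd11b2 had between 0 and 6 counts in any library and was not tested. The chaperones that hold the receptor ready to bind hormone were mostly higher in Model than in Sham. In Model against Sham 7 of 9 rose, with a median log2 fold change of 0.50 over the 9, where 27.3% of all genes tested rose and 26.6% fell, and none of the 7 reached the fold threshold. Hsp90aa1, an inducible form of Hsp90, rose by 0.70 on the log2 scale (SE 0.08, adjusted p = 0.000217), and Ptges3, the p23 cochaperone, by 0.71 (SE 0.09, adjusted p = 0.000324). Hsp90aa1 was at 1530 to 1604 CPM in Sham, 2383 to 2655 CPM in Model, 2558 to 2591 CPM in rt-PA and 2379, 2171 and 4069 CPM in rt-PA+Acu. The third rt-PA+Acu rat stood well above the other 2, and the log2 fold change of Hsp90aa1 in rt-PA+Acu against Sham, 0.89 (SE 0.24, adjusted p = 0.0713), did not pass the test. In that comparison the 9 chaperones had adjusted p-values from 0.0713 to 0.639 in edgeR's test, and none passed. Their median log2 fold change was still 0.45, where that of all genes was 0.02, and 8 of 9 were higher than in Sham. Groups did not overlap for 7 of 9, against 30.7% of all genes. Between rt-PA+Acu and rt-PA the 9 chaperones had adjusted p-values from 0.0728 to 0.629. These 2 chaperones, the coregulators and Rpl39 were chosen after their values were seen.

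Abcb1b, a drug efflux pump that transports corticosteroids, was the ligand handling gene that changed. It stood at 55.1 to 63.9 CPM in Sham, 17.8 to 23.5 CPM in Model, 29.4 to 34.1 CPM in rt-PA and 41.0 to 61.6 CPM in rt-PA+Acu. It fell by 1.56 on the log2 scale in Model against Sham (SE 0.14, adjusted p = 7.24e-05) and rose by 0.78 in rt-PA+Acu against rt-PA (SE 0.17, adjusted p = 0.0131). All Model and rt-PA libraries lay below all Sham and rt-PA+Acu libraries for Abcb1b, a split that the summed excitatory neuron markers also had. Summed markers of endothelial cells, with 5 of 7 in the table, were 245 to 267 CPM in Sham and 200 to 394 CPM in Model. They were 360 to 465 CPM in rt-PA and 159 to 182 CPM in rt-PA+Acu. The part of either cell type was not tested. The coregulators Ncoa2, a coactivator of the receptor, and Ncor1, a corepressor, moved together. Each fell by 0.50 on the log2 scale in Model against Sham (adjusted p = 0.00215 and 0.000891), and in rt-PA+Acu against rt-PA they rose by 0.65 and 0.62 (adjusted p = 0.00369 and 0.00543). In all, 1 of 8 coregulators rose and 3 fell in the first of these comparisons, and 2 of 8 rose in the second, where 17% of all genes rose and 17.7% fell. Ep300, a histone acetyltransferase, was the coregulator that rose in rt-PA+Acu against Sham, by 0.96 (SE 0.09, adjusted p = 0.00239). It was at 50.4 to 59.9 CPM in the Sham libraries and the third Model library and at 103 to 119 CPM in the other 8, a split that the ribosomal protein gene Rpl39 shared, with 9.2 to 11.7 CPM against 42.5 to 71.0 CPM.

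Further targets of the receptor moved in both directions after the clot. They were listed with earlier results of these data known, so their counts beside all genes are no test of the receptor. In Model against Sham the study's threshold was met as higher by 9.43% of all genes and as lower by 12%. Of 23 further targets tested there, 8 rose and 8 fell, each by over 1 on the log2 scale. Among those that fell were Hif3a, a hypoxia-inducible factor subunit, with a log2 fold change of -3.47 (SE 0.65, adjusted p = 0.00249), and Sult1a1, a sulfotransferase, with -3.66 (SE 0.52, adjusted p = 0.000608). Hif3a had only 0, 5 and 8 counts in the Model libraries, so the size of its fall is uncertain. Lcn2, an iron-binding protein of the acute phase, rose by 3.45 (SE 0.44, adjusted p = 0.000361), and Il1r2, the decoy receptor for interleukin-1, was at least 29.8-fold higher in Model than a Sham level of 3 counts per library. Il1r2 was at 0.0809 to 0.175 CPM in Sham, 5.95 to 8.32 CPM in Model, 6.96 to 13.7 CPM in rt-PA and 0 to 0.524 CPM in rt-PA+Acu. With acupuncture against rt-PA alone, 12 of 22 fell and 3 rose, with a median log2 fold change of -1.26 over the 22, where 17.7% of all genes fell and 17% rose and the median of all genes was -0.0027. Besides Il1r2 (adjusted p = 0.00245), the scavenger receptor Cd163 fell by 2.56 (SE 0.36, adjusted p = 0.00298), the transglutaminase Tgm2 by 2.43 (SE 0.24, adjusted p = 0.00118) and the cell cycle inhibitor Cdkn1a by 2.35 (SE 0.30, adjusted p = 0.00235). Summed markers of monocytes and macrophages, which include Cd163, were 342 to 576 CPM in rt-PA and 76.8 to 125 CPM in rt-PA+Acu, and those of neutrophils 14.7 to 81.4 CPM and 3.67 to 5.23 CPM, with the neutrophil granule genes Mpo and Elane at 0 in all 12 libraries. Their part was not tested.

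Set against Sham, the rt-PA+Acu rats had 1 of 22 further targets higher and 7 lower, and of the 41 pathway genes tested 9 passed the test, 2 higher and 7 lower, where 1.7% of all genes were higher and 3.4% lower. Lcn2, Hif3a, Mfsd2a and Mertk met the study's threshold, 4 of the 41 where 2.06% of all genes did so. That count was 1 without the first Sham library, 0 without the second or the third, and 3 or 4 without any 1 rt-PA+Acu library. The count of all genes moved too, from 263 to between 82 and 359 with 1 library left out. Lcn2, the one that rose, was at 0.961 to 2.43 CPM in Sham and at 6.23, 18.6 and 45.9 CPM in rt-PA+Acu, a log2 fold change of 3.93 (SE 0.74, adjusted p = 0.0268), and lay above the Sham range in each rat. Hif3a was at 3.72 to 4.54 CPM in Sham and 0.749 to 1.31 CPM in rt-PA+Acu, a log2 fold change of -2.11 (SE 0.34, adjusted p = 0.0157). Mfsd2a, the lipid transporter of the blood-brain barrier, fell by 1.13 (SE 0.22, adjusted p = 0.0316), and Mertk, a receptor for dying cells on phagocytes, by 1.05 (SE 0.15, adjusted p = 0.0105). Of the 41 genes, 0 passed edgeR's test in rt-PA against Model, as did 0% of all genes. At an unadjusted p under 0.05 there were 3 of the 41, where 9.92% of all genes were below it. In DESeq2, 2 of the 41 met the study's threshold, and the count of all genes is given below.

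**Figure D4:**
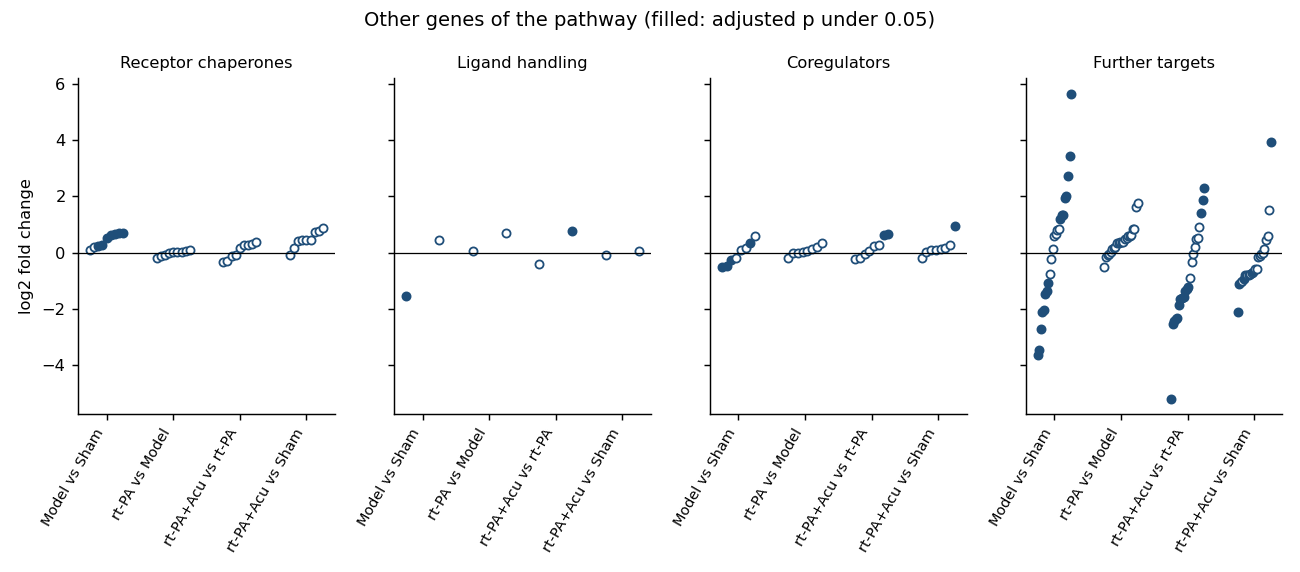
log2 fold change (y axis) of each tested gene in the lists of receptor chaperones, ligand handling genes, coregulators and further targets, in 4 comparisons (x axis), with 1 point per gene and filled points for an adjusted p under 0.05 in edgeR's quasi-likelihood test. The chaperones lie mostly above 0 in Model against Sham, and the further targets spread in both directions there and mostly below 0 in rt-PA+Acu against rt-PA.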

How the data were processed

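The deposited table holds raw read counts, 1 whole number for each gene symbol in each rat's library, neither normalized nor pooled. Per the study's methods and the submitters' processing notes, the authors aligned paired reads from strand-specific poly(A) libraries to the rat genome mRatBN7.2 with STAR 2.7.10a, and featureCounts 2.0.1 and Salmon 1.9.0 are named for counting. Use of the molecular identifiers in the adapters is not stated, so read counts may hold PCR copies. Each rat had 1 library, so the p-values cover the spread between rats and between library preparations together.

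From these counts, edgeR 4.0.16 in R 4.3.3 was run on the 6 libraries of each comparison, with filterByExpr, TMM factors (0.9488 to 1.078 over the 12 libraries) and the quasi-likelihood test, with p-values adjusted by the Benjamini-Hochberg method across every gene tested. Fits were tested on simulated data, with 200 genes changed 4-fold. DESeq2 1.42.0 was an alternative. Groups came from the deposited labels, no 2 libraries were identical, and 1373 genes had no count. The genes and lists were chosen with earlier results of these data known. Members were all named, and of each pathway list up to 4 genes meeting the threshold with the largest change, at a mean of at least 1 CPM; other names are said to be chosen after their values were seen. Promoters came from RefSeq (GRCr8), a build other than the authors' own, and gave sequence only.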

Additional observations from a re-analysis of the deposited data

How the results depend on the processing

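With 3 rats per group, a gene as variable as Pdk4 or Sgk1 has little precision, and leaving out 1 library leaves 2 against 3. Scaling by library size alone shifted the median of all genes by up to 0.15 on the log2 scale. Of the fold changes compared, 560 kept direction and side of the threshold, 20 lost the call, 25 gained it and 25 changed sign. None of those that changed sign had passed the test. These totals include the setting of an unadjusted p under 0.05, which reuses the main fit. Under it no sign can change and no call can be lost. The causes were not tested.

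Counts at the study's threshold differed as follows. Members in rt-PA+Acu against rt-PA were 2, and 4 with no fold threshold. Members in rt-PA+Acu against Sham were 1, and 0 with 1 fit over 12 libraries. Pathway genes in Model against Sham were 17, and 28 with no fold threshold. In rt-PA against Sham they were 19, and 34 with no fold threshold. Against Sham, rt-PA+Acu had 4, and 9 with no fold threshold. In rt-PA against Model they were 0, and 2 with DESeq2 and at an unadjusted p. With 1 library left out, members ranged from 2 to 5 in Model against Sham, 0 to 0 in rt-PA against Model, 2 to 3 in rt-PA against Sham, 1 to 3 in rt-PA+Acu against rt-PA and 0 to 2 in rt-PA+Acu against Sham, and pathway genes in the last from 0 to 4.

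All genes meeting the threshold numbered 2765 in Model against Sham (6951 with no fold threshold), 2940 in rt-PA against Sham (7127), 1993 in rt-PA+Acu against rt-PA (4522) and 263 in rt-PA+Acu against Sham (651, with 422 by DESeq2, 583 at an unadjusted p and 82 to 359 with 1 library left out). In rt-PA against Model there were 0, with 73 by DESeq2, 2 with 1 fit over 12 libraries, 241 at an unadjusted p and 0 to 3 with 1 library left out.

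Whether replicate numbers pair the rats cannot be settled with 3 libraries per group. Same-numbered deviations correlated between -0.121 and 0.146, with at most 1 of 3 pairs over 0.1 in any comparison. In Model against Sham the same-numbered pairs, at 0.051 to 0.111, all lay above the other pairs, at -0.084 to 0.024. The block's other values changed no call but those given here and Fkbp5 in rt-PA+Acu against rt-PA (adjusted p = 0.0550), Pdk4 in rt-PA against Sham (adjusted p = 0.0492) and Pdk4 in rt-PA+Acu against Sham (adjusted p = 0.0606). With the replicate block, members were 4 in Model against Sham, where Sgk1 (-0.72, adjusted p = 0.00319), Pdk4 (-1.64, adjusted p = 0.0109) and Klf9 (-0.29, adjusted p = 0.0237) also passed the test. The block left rt-PA+Acu against Sham with 0 members and 1 pathway gene, and 194 of all genes.

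Fold changes that reversed were small or rested on 1 library. With library size alone, Nr3c1 in Model against Sham was 0.0258 and Klf9 in rt-PA+Acu against rt-PA was -0.0926. With the block, Pdk4 in rt-PA against Model was 0.0532, and in rt-PA+Acu against rt-PA Klf9 was -0.0104 and Nr3c2 0.00871. With 1 library left out, Nr3c1 in Model against Sham ranged from -0.15 to 0.0755. In rt-PA against Model, Nr3c2 ranged from -0.23 to 0.19, Zbtb16 from -0.65 to 0.24, Pdk4 from -1.23 to 1.18, Sgk1 from -0.10 to 0.74, Errfi1 from -0.16 to 0.0441 and Fkbp5 from -0.058 to 0.41. In rt-PA+Acu against rt-PA, Klf9 ranged from -0.13 to 0.26, Sgk1 from -0.66 to 0.00365, Pdk4 from -0.78 to 0.75 and Nr3c2 from -0.16 to 0.25. In rt-PA against Sham, Fkbp5 ranged from -0.42 to 0.0545 and Nr3c2 from -0.0672 to 0.35. Against Sham, Hsd11b1 in rt-PA+Acu ranged from -0.0442 to 0.28.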
